A study of Mus musculus with 11 samples.

Results

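The 39 genes described here mark T and B lymphocytes. Of these, 22 are genes of T cells, 14 are genes of B cells, and 3 are expressed by both kinds of cell or by leukocytes in general. They were taken by gene symbol, with no measured value in the rule, and correspond to 41 of the 35683 genes summed from the deposited table. The 2 extra entries are second gene identifiers of Cd28 and Ctla4, whose values were kept apart from those given below. RNA was measured in the full-thickness colon of 6 Tnfr1-/- mice, which lack the TNF receptor TNFR1 (gene Tnfrsf1a), and of 5 WT mice, each 2 weeks old. No strain, sex, litter or batch is stated in the labels, the deletion is not described further, and a library is taken here as 1 mouse. The colon wall was sequenced whole, so fewer lymphocytes and less RNA per lymphocyte cannot be told apart in any value below.

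T cells recognise antigen through a receptor that signals by way of the CD3 chains, and B cells through a membrane antibody that signals by way of the paired chains CD79a and CD79b. In the mouse colon both cell types gather in lymphoid patches and isolated follicles, which form and fill during early life and where stromal CXCL13 attracts B cells that carry CXCR5. TNFR1 is known for its part in organising B cell follicles and their follicular dendritic cells in lymphoid organs. The comparison asks what loss of the receptor does to these genes before weaning.

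Values are abundances, that is TPM (a share of transcripts that corrects for transcript length) divided by the authors' size factor for each library, summed over the transcripts of a gene. They are per length and can be compared between genes. By the read steps in the values, libraries held between 27.6 and 42.0 M reads. Tnfrsf1a averaged 22.4 ± 3.54 in Tnfr1-/- colons (SD, n = 6) and 67.1 ± 5.04 in WT colons (SD, n = 5), a log2 fold change of -1.57 with SE 0.10 and an adjusted p of 8.52e-05 (limma, Benjamini-Hochberg). It was the 1 gene called among 15079 tested (0.00663%). WT replicates 1 and 2 stood apart from the other libraries in makeup: 6 epithelial genes summed to 4597 and 5273 there, against 2982 to 4175 in Tnfr1-/- colons and 2986 to 3244 in the other WT colons. Results are therefore also given without these libraries where that changed them.

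Lymphocyte genes did not differ between genotypes beyond the spread between mice. Of the 39 members, 17 passed the filter on low values (an abundance of at least 1 in at least 5 libraries): 10 of the T cell genes, 5 of the B cell genes, and Ptprc and Coro1a. None of the 17 was called by limma at an adjusted p under 0.05, and 0 had an unadjusted p under 0.05, against 9.37% of all genes tested (4.20% higher and 5.17% lower in Tnfr1-/-). The Tnfr1-/- and WT ranges overlapped for all 17, while they did not for 1.49% of all genes. Fitted values were higher in Tnfr1-/- for 9 members and lower for 8, beside 47.9% higher among all genes. The median log2 fold change was 0.10 for the 10 T cell genes and -0.0022 for the 5 B cell genes, beside -0.01 over all genes.

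The precision of these comparisons differed between genes. For 13 of the 17 members the 95% interval lay inside 2-fold in both directions on the scale fitted, against 93.2% of all genes tested. The other 4 were Cd3d, Gata3, Cd79a and Cd79b, whose intervals reached past 2-fold. That scale, the log2 of the value plus 0.5, understates changes of low genes. With 0.1 added in place of 0.5 the count was 10 of 17, and with 1 added it was 14. A 2-fold change in abundance is therefore not excluded for all of the 13. Of the 22 members below the filter, 12 were T cell genes and 9 were B cell genes, and the last was Ccr7. In a fit without the filter, in which 7.39% of 26294 genes had an unadjusted p under 0.05, none of the 39 did, and among the 22 the lowest was 0.216, for Gzma.

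**Figure D1:**
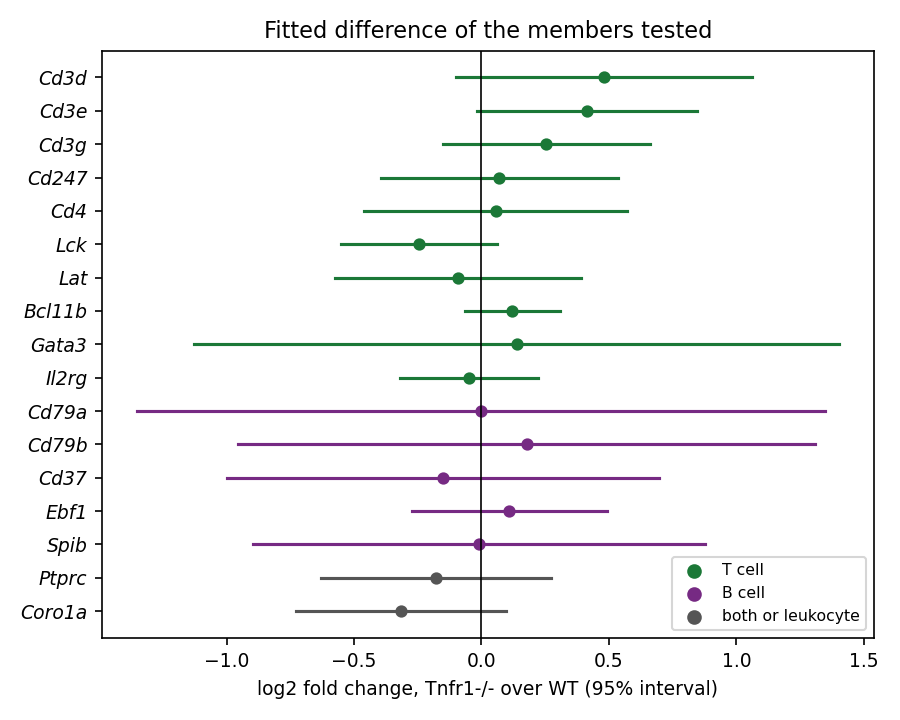
Fitted log2 fold change, Tnfr1-/- over WT, of the 17 members that passed the filter (points) with 95% intervals from limma (bars), T cell genes in green, B cell genes in purple, and genes of both in grey. Every interval includes 0, and those of Gata3, Cd79a and Cd79b are the widest.

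Among the antigen receptor chains of T cells, Cd3e had the lowest p of the members. Cd3d, Cd3e and Cd3g, the chains that carry the receptor's signal into the cell, lie together on mouse chromosome 9 (chr9:44969572-45009627, GRCm38), and Cd3g and Cd3d are transcribed away from each other from starts 1355 bases apart. Cd3e had abundances of 0.742, 1.17 and 1.39 in Tnfr1-/- colons (lowest, median, highest), against 0.506, 1.42, 0.490, 0.806 and 0.512 in WT replicates 1 to 5. WT replicate 2 was the highest of all 11 libraries, and the other 4 WT libraries were below all Tnfr1-/- libraries but replicate 5. The log2 fold change of 0.41 (SE 0.20) had an unadjusted p of 0.0576, the lowest among the members, and an adjusted p of 0.547 (limma), which ran from 0.462 to 0.767 when each library was left out in turn.

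Cd3g stood at 2.00, 3.07 and 3.76 in Tnfr1-/- colons (lowest, median, highest), against 1.87, 3.95, 2.28, 2.50 and 1.85 in WT colons, again with the highest value in WT replicate 2. Its log2 fold change was 0.25 (SE 0.19, adjusted p = 0.702, limma). Cd3d averaged 1.54 ± 0.69 in Tnfr1-/- colons (SD, n = 6) and 0.92 ± 0.36 in WT colons (SD, n = 5), with a log2 fold change of 0.48 and an adjusted p of 0.607 (limma). That gap lay outside the full-length transcript. The full-length Cd3d transcript (1617 bases) averaged 0.715 ± 0.115 in Tnfr1-/- and 0.745 ± 0.248 in WT colons, whereas a transcript of 286 bases stood at 1.20, 0.542 and 1.88 in Tnfr1-/- replicates 1, 4 and 5 and at 0 in the other 3. In WT colons the transcript of 286 bases stood at 0.197 and 0.677 in replicates 2 and 3 and at 0 elsewhere. Another short transcript, of 299 bases, stood at 1.26 in Tnfr1-/- replicate 6 and 0.0519 in Tnfr1-/- replicate 2 and was listed at 0 in the other 9 libraries. Cd247, the zeta chain, averaged 1.32 ± 0.32 in Tnfr1-/- and 1.28 ± 0.55 in WT colons.

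Of the coreceptors, which bind the MHC molecule beside the antigen receptor, Cd4 passed the filter and Cd8a and Cd8b1 were low. Cd4, of helper and regulatory T cells and of some myeloid cells, averaged 1.62 ± 0.61 in Tnfr1-/- colons (SD, n = 6) and 1.53 ± 0.55 in WT colons (SD, n = 5), with a log2 fold change of 0.06 and a 95% interval from -0.46 to 0.57. Cd4 ends 461141 bases from Tnfrsf1a on chromosome 6, the chromosome of the deleted gene. Cd8a, of cytotoxic T cells and intraepithelial lymphocytes, had 0.267, 0.447 and 0.660 in Tnfr1-/- colons (lowest, median, highest), against 0.262, 0.797, 0.341, 0.272 and 0.392 in WT colons. Cd8b1, which marks the conventional CD8 alpha-beta pair, was lower still, at 0.0247 to 0.524 in Tnfr1-/- and 0 to 0.181 in WT colons, from an estimated 22.3 reads at most. The ratio of Cd4 to Cd8a ran from 2.34 to 4.06 in Tnfr1-/- colons and from 2.46 to 8.25 in WT colons, so Cd4 exceeded Cd8a in every library and the groups overlapped.

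Among receptor-proximal signalling genes, Lck had a lower SD of log2 values over the 11 libraries (0.26) than Cd3g (0.33), and Lat a higher one (0.36). Lck, the kinase that first phosphorylates the CD3 chains, had 1.99, 2.58 and 3.59 in Tnfr1-/- colons (lowest, median, highest), against 3.26, 3.60, 2.75, 2.90 and 3.68 in WT colons. Its log2 fold change of -0.25 (SE 0.14) had the opposite sign to those of the CD3 chains Cd3e and Cd3g and was not called (adjusted p = 0.622, limma). Cd3d had the same sign as Cd3e and Cd3g, but only through its short transcripts. Zap70, the kinase recruited to phosphorylated CD3 chains, ranged from 0.524 to 1.05 in Tnfr1-/- and from 0.450 to 0.680 in WT colons. Lat, the adaptor that Zap70 phosphorylates, averaged 1.30 ± 0.42 in Tnfr1-/- and 1.44 ± 0.53 in WT colons.

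Most surface regulators of T cells had low abundances, though Icos rested on an estimated 13.0 to 51.9 reads. Cd5 and Cd6, which dampen receptor signalling, did not exceed 0.498 (Cd5) and 0.353 (Cd6) in any library, and the costimulatory receptors did not exceed 0.297 (Cd28) and 0.514 (Icos). Ctla4, the inhibitory counterpart of Cd28, was at 0 in 6 of the 11 libraries under its main identifier. In those libraries its second identifier stood at 0.0170 to 0.0672, except in WT replicate 5, where both were at 0. Cd2, an adhesion and costimulation receptor, was higher, at 0.578 to 1.49 in Tnfr1-/- and 0.458 to 1.49 in WT colons. Foxp3, which defines regulatory T cells, stood at 0.0224 to 0.0801 in Tnfr1-/- and 0.0297 to 0.0847 in WT colons, above 0 in every library but too low for a comparison at this depth.

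Among cytokine receptors, Il2rg, the chain shared by several interleukin receptors, was similar across mice, at 4.92 ± 0.86 in Tnfr1-/- colons (SD, n = 6) and 5.09 ± 0.69 in WT colons (SD, n = 5), with a log2 fold change of -0.05 and a 95% interval from -0.32 to 0.22. Il7r, the receptor for the survival factor IL-7 on resting T cells and innate lymphoid cells, ranged from 0.425 to 1.13 in Tnfr1-/- and from 0.340 to 0.790 in WT colons. Gzma, a granule protease of cytotoxic lymphocytes, had 0.217, 0.424 and 0.636 in Tnfr1-/- colons (lowest, median, highest), against 1.16, 1.08, 0.483, 0.895 and 0.0513 in WT colons. It was the member below the filter with the lowest p, and its values rested on at most an estimated 22.0 reads.

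Bcl11b, which keeps T cell identity and is also expressed in some other tissues, was the member that varied least, from 3.12 to 3.94 in Tnfr1-/- and from 2.81 to 3.75 in WT colons. Gata3, the factor of T helper type 2 cells and of T cell development, was the T cell gene that varied most. It stood at 5.58, 3.69, 6.76, 11.7, 0.623 and 15.6 in Tnfr1-/- replicates 1 to 6, against 5.42, 5.56, 7.32, 3.70 and 3.17 in WT replicates 1 to 5, a 25.05-fold range. The highest and the lowest values were both in Tnfr1-/- colons, and the log2 fold change was 0.14 (SE 0.58, adjusted p = 0.966, limma).

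The correlation of Gata3 with the 21 other T cell genes ran from r = -0.81 (Cd8b1) to 0.42 (Zap70) over the 11 libraries, with 14 of the 21 below 0. Outside lymphocytes it is expressed in stratified squamous epithelium, hair follicles and other ectoderm-derived tissue. Among the genes with the most similar log2 abundance across the 11 libraries were Krt17 (Pearson r = 0.99), Grhl1 and Krt75 (r = 0.98 each), which are genes of squamous epithelium and hair, and 234 of the 15078 other genes tested had r above 0.9. Krt5, the keratin of basal squamous cells, had r = 0.90 and rho = 0.72 with Gata3 (permutation p adjusted over 8 pairs = 0.00208 and 0.0337). This pair was added after the data were seen, and the adjustment does not cover that choice, so its p-values only describe the pair. Without Tnfr1-/- replicates 5 and 6, the libraries farthest from the median, r was 0.72 (exact permutation p = 0.0308). A list of 10 squamous genes, added after the values were seen, summed to 209 to 1635 in Tnfr1-/- colons and 525 to 840 in WT colons. All 10 were detected, all had higher fitted values in Tnfr1-/-, and 0 had an unadjusted p under 0.05. The part of this tissue in the Gata3 values was not tested.

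None of the B cell genes was called between the genotypes, and they had wider ranges across mice than T cell genes. The highest value of a member over its lowest was 10.7-fold for the median of the 14 B cell genes. It was 3.27-fold for the median of the 20 T cell genes above 0 in every library. WT replicate 2 was the highest library for 12 of the B cell genes, so 1 colon sets the upper end of most of their ranges. The B cell genes whose promoters are printed here carry the signal of the B cell antigen receptor or temper it. Cd79a encodes a signalling chain, Cd22 an inhibitory receptor that binds sialic acid, and Cd37 a tetraspanin of mature B cells. The stretches are from RefSeq on GRCm38.p6, read 5′ to 3′ on the gene's strand before its RefSeq start. Bases within GENCODE M21 exons of the gene were left out, except 18 bases that hold the Cd37 motif. Capitals mark a motif, and none of the 3 searched was in the Cd79a window.
Cd79a, chr7:24897247-24897380, plus strand: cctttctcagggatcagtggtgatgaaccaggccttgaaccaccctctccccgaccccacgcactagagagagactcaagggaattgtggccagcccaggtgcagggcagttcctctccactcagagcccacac
Cd22, chr7:30879029-30879176, minus strand: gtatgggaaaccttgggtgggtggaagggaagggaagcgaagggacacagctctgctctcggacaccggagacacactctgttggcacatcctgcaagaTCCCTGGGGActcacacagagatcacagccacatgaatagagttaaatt
Cd37, chr7:45238857-45238959, minus strand: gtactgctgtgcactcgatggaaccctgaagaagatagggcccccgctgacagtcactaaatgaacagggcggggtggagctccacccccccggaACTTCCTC

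The motifs searched on both strands of the 300-base promoter windows were the EBF1 palindrome (TCCC and GGGA with any 2 bases between), the PU.1 and SPI-B motif GAGGAAGT and the octamer ATGCAAAT. The EBF1 palindrome begins 49 bases before the Cd22 start, and GAGGAAGT lies on the opposite strand of Cd37, within the last 25 bases before its start. Among all 32851 promoter windows, 0.904% held the EBF1 palindrome, 3.20% held GAGGAAGT and 1.74% held ATGCAAAT. Windows were found for 28 of the 39 members. Of the 10 B cell genes with a window, only Cd22 held the first motif and only Cd37 the second, and of the 16 T cell genes Il2rg held the first and Cd5 the second. The octamer was in none of the windows of either set.

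Cd79a stood at 4.55, 1.35, 0.646, 1.14, 3.18 and 1.40 in Tnfr1-/- replicates 1 to 6, against 0.452, 10.1, 0.666, 0.923 and 2.80 in WT replicates 1 to 5. Both extremes were WT colons, 22.4-fold apart, from an estimated 13.0 reads in the lowest library to 330.2 in the highest. By SD on the log2 scale it ranked 349 among the 15079 genes tested, counted from the most variable. The log2 fold change was -0.0022 (SE 0.61, 95% interval -1.35 to 1.35). Without WT replicate 2 it was 0.56, and without WT replicates 1 and 2 it was 0.34, neither of them called (adjusted p = 0.667 and 0.767, limma). A change of 2-fold in Cd79a in either direction therefore lies within what these mice allow.

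Cd79b, its partner chain, followed the same libraries. It stood at 0.949, 1.71 and 3.41 in Tnfr1-/- colons (lowest, median, highest), against 0.395, 7.19, 0.731, 0.916 and 2.59 in WT colons. The ratio of Cd79a to Cd79b stayed between 0.581 and 1.48 in Tnfr1-/- colons and between 0.910 and 1.41 in WT colons, while Cd79a over the T cell gene Cd3g ran from 0.185 to 1.54 in Tnfr1-/- and from 0.242 to 2.56 in WT colons. Ms4a1, which encodes CD20, had 0.193, 0.735 and 1.48 in Tnfr1-/- colons (lowest, median, highest), against 0.316, 3.10, 0.304, 0.419 and 1.17 in WT colons. In both groups a few colons were high for all of these genes and the rest were low.

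**Figure D2:**
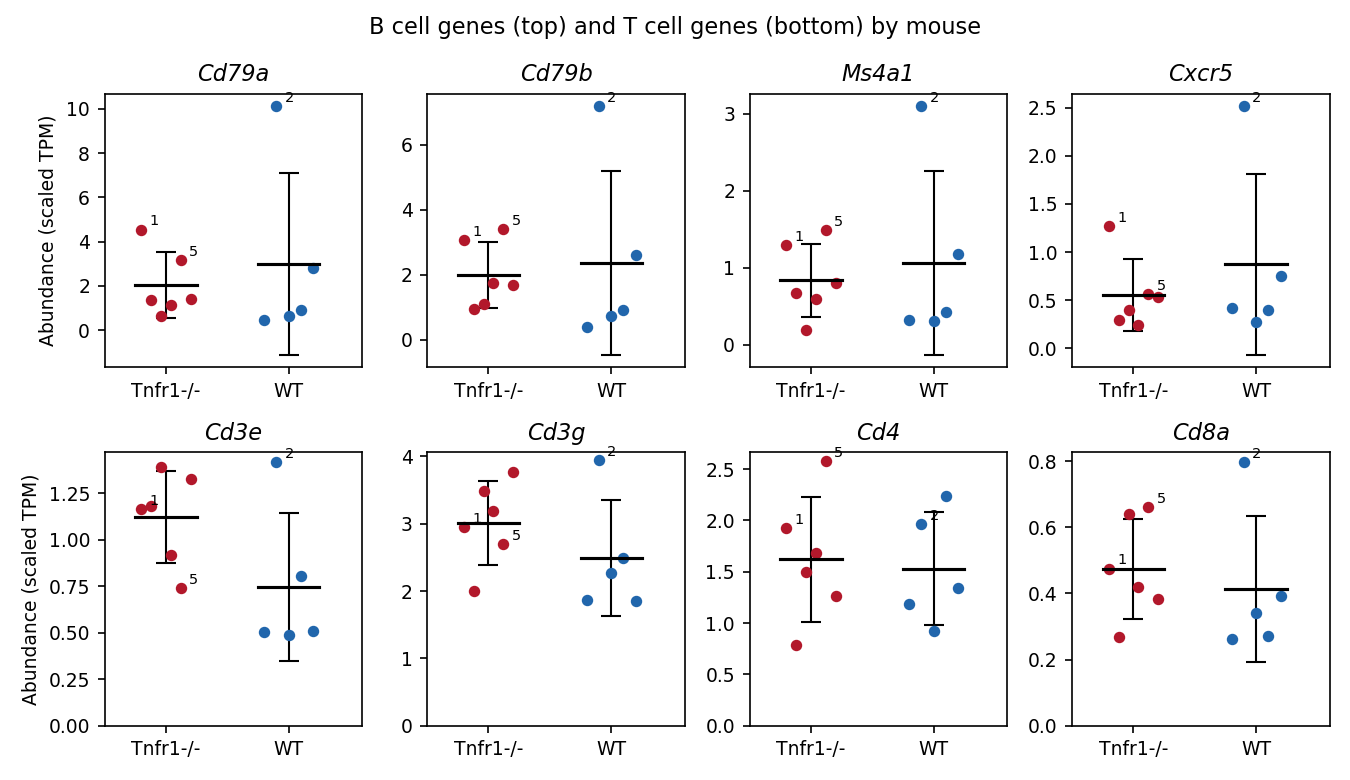
Abundance (scaled TPM) of 4 B cell genes (top) and 4 T cell genes (bottom) in each Tnfr1-/- colon (red) and WT colon (blue), with the mean (line) and SD (bars), and small digits for Tnfr1-/- replicates 1 and 5 and WT replicate 2. WT replicate 2 is the highest library for the B cell genes shown, at 10.1 for Cd79a, and the groups overlap in every panel.

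Surface receptors of B cells repeated this order. Fcer2a, the low-affinity IgE receptor CD23 of follicular B cells, ranged from 0.420 to 1.58 in Tnfr1-/- and from 0.338 to 2.99 in WT colons. Cd22 ranged from 0.461 to 0.836 in Tnfr1-/- and from 0.225 to 2.80 in WT colons. Cd37 ranged from 1.74 to 4.72 in Tnfr1-/- and from 1.77 to 9.94 in WT colons. Cxcr5, the receptor that draws B cells into follicles, had 0.245, 0.468 and 1.27 in Tnfr1-/- colons (lowest, median, highest), against 0.417, 2.52, 0.271, 0.400 and 0.753 in WT colons. The top value of each of these receptors in WT colons was that of replicate 2.

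Cr2, the complement receptor CD21 of B cells and follicular dendritic cells, was an exception, with its highest value of 2.28 in Tnfr1-/- replicate 2, against at most 0.927 in WT colons. Of that value, 1.20 came from a transcript of 206 bases. With transcripts of at least 500 bases alone, Cr2 ran from 0.119 to 0.595 in Tnfr1-/- colons and from 0.249 to 0.927 in WT colons, and WT replicate 2 was again the highest.

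Intracellular genes of B cells were not called either or lay under the filter. Blk, a Src family kinase below the B cell receptor, reached 0.525 in Tnfr1-/- colons and 1.83 in WT colons. Bank1, a scaffold of the same pathway, reached 1.09 in Tnfr1-/- colons and 1.30 in WT colons. Pax5, which commits cells to the B lineage, ranged from 0.1002 to 0.592 in Tnfr1-/- and from 0.0168 to 1.35 in WT colons. Its 80.2-fold range, the widest among the 37 members above 0 in every library, rested on an estimated 2.99 reads in the lowest library. At the upper end, 0.535 of the 1.35 in WT replicate 2 came from a transcript of 421 bases. With transcripts of at least 500 bases alone, Pax5 ran from 0.0168 to 0.650 in WT colons. Pou2af1, a coactivator at octamer sites that germinal centres need, ranged from 0.128 to 0.811 in Tnfr1-/- and from 0.0761 to 1.24 in WT colons. Spib, an ETS factor of B cells that epithelial M cells and plasmacytoid dendritic cells also use, ranged from 0.399 to 2.33 in Tnfr1-/- and from 0.436 to 3.71 in WT colons, with a log2 fold change of -0.01 (SE 0.40).

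Ebf1, the early B cell factor, behaved unlike the other B cell genes. It is also expressed in adipocyte precursors and in stromal and vascular cells. Its values were 2.13, 2.84 and 3.55 in Tnfr1-/- colons (lowest, median, highest), against 1.43, 2.61, 3.04, 2.96 and 2.97 in WT colons. The lowest was WT replicate 1, and WT replicate 2, the highest library for most B cell genes, ranked 8 of 11. Across the 11 libraries r with Cd79a was 0.40 and rho 0.35 (permutation p adjusted over 8 pairs = 0.294 and 0.337), and without WT replicate 1 and Tnfr1-/- replicate 3 r was -0.10 (exact permutation p = 0.804).

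Of the genes shared by lymphocytes and other leukocytes, Ptprc and Coro1a had lower fitted values in Tnfr1-/- colons without passing the test. Ptprc, the leukocyte phosphatase CD45, averaged 3.42 ± 0.88 in Tnfr1-/- colons (SD, n = 6) and 3.97 ± 1.27 in WT colons (SD, n = 5), with a log2 fold change of -0.18 (SE 0.21). Coro1a, an actin regulator of haematopoietic cells and the most abundant member, had 11.0, 14.3 and 21.54 in Tnfr1-/- colons (lowest, median, highest), against 16.2, 27.6, 15.1, 20.1 and 16.6 in WT colons. Its log2 fold change was -0.32 (SE 0.19, adjusted p = 0.634, limma). Ccr7, which guides naive lymphocytes and dendritic cells to lymphoid tissue, ranged from 0.166 to 0.777 in Tnfr1-/- and from 0.184 to 0.974 in WT colons. Macrophages and dendritic cells express Ptprc and Coro1a too, and 12 of their 13 marker genes were tested, all 12 with lower fitted values in Tnfr1-/- and 0 at an unadjusted p under 0.05. Their summed level was 116 to 174 in Tnfr1-/- and 146 to 191 in WT colons, with none at 0, and their part in the values of Ptprc and Coro1a was not tested.

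**Figure D3:**
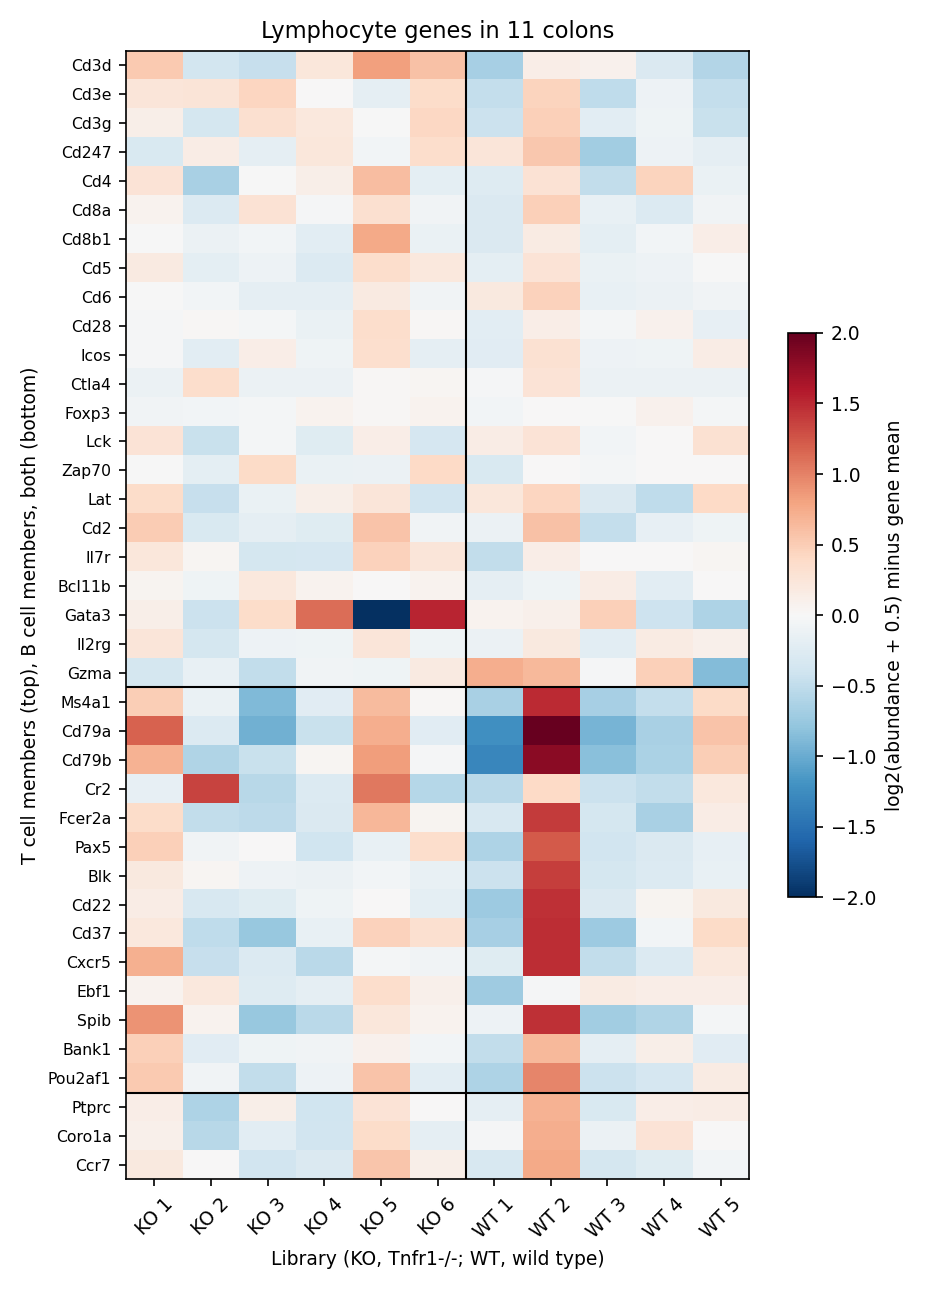
Log2 abundance of all 39 members relative to the mean of the gene (colour, limited to 2 in each direction), T cell genes at the top, B cell genes in the middle and genes of both at the bottom, with Tnfr1-/- libraries (KO) left of WT libraries. WT replicate 2 is the highest library for 12 of the 14 B cell genes, and no row separates the genotypes.

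Scores of the gene sets showed the same pattern by library. A score averages, over the members that passed the filter, how far the log2 abundance lies from the mean of all 11 libraries, so 0 is the average colon. The B cell score was 0.61, -0.22, -0.64, -0.26, 0.52 and 0.05 in Tnfr1-/- replicates 1 to 6, against -0.80, 1.39, -0.61, -0.36 and 0.31 in WT replicates 1 to 5. The T cell score was 0.19, -0.27, 0.04, 0.18, -0.05 and 0.23 in Tnfr1-/- replicates 1 to 6, against -0.14, 0.28, -0.18, -0.11 and -0.16 in WT replicates 1 to 5. The T cell score was negative in all WT colons but replicate 2 and positive in 4 of the 6 Tnfr1-/- colons. Gata3 is 1 of its 10 genes and had its lowest value, 0.623, in Tnfr1-/- replicate 5. With no filter the T cell score was 0.12 in Tnfr1-/- replicate 5 and -0.02 in Tnfr1-/- replicate 3. The mean difference was 0.11 for T cell genes and 0.02 for B cell genes on the log2 scale. Without Gata3 the T cell difference was 0.11. Cd3d is also 1 of the 10 genes and had the highest log2 fold change of them, 0.48, in a gap outside its full-length transcript. The part of Cd3d in the score difference was not tested. With no filter, the differences were 0.06 over 24 T cell entries (the second identifiers of Cd28 and Ctla4 included) and -0.0029 over 14 B cell genes. With the filter and without WT replicate 2 the mean difference was 0.16 for T cell genes and 0.38 for B cell genes, and without WT replicates 1 and 2 it was 0.16 and 0.18.

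The number of members detected, at an abundance of at least 0.5, ordered the libraries much as the score did for B cell genes but not for T cell genes. Tnfr1-/- replicate 5 had the most T cell genes detected, 16, with a T cell score of -0.05. Of the 22 T cell genes, 12 to 16 were detected per Tnfr1-/- colon and 11 to 15 per WT colon. Of the 14 B cell genes, 6 to 13 were detected per Tnfr1-/- colon and 4 to 14 per WT colon. All 14 were detected in WT replicate 2 and only 4 in WT replicate 1. Cd37 and Ebf1 were the B cell genes detected in every library, whereas 9 T cell genes were, and Cd5, Cd6, Cd28, Ctla4 and Foxp3 reached 0.5 in none.

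B cell genes varied together across mice. Of the 13 other B cell genes, 11 had a Pearson r above 0.8 with Cd79a over the 11 libraries, with a median r of 0.90, and 1 of the 22 T cell genes did, Cd2, with a median r of 0.47 for T cell genes. WT replicate 2 was the highest library for 12 of the 14 B cell genes and 7 of the 22 T cell genes, and Tnfr1-/- replicate 5 was the highest for 8 T cell genes. Cd79a and Ms4a1 had r = 0.98 and rho = 0.96 (permutation p = 1e-05 for each, the smallest these permutations can give, adjusted p = 8.0e-05). Without WT replicate 2 and Tnfr1-/- replicate 1, r was 0.97, and within the 6 Tnfr1-/- colons it was 0.93 (exact permutation p = 0.0111). For the 5 WT colons there are too few to give a correlation.

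Over the 231 pairs of T cell genes the median r was 0.26 and 3.03% of pairs had r above 0.8, against 0.81 and 57.1% over the 91 pairs of B cell genes. The pairs share the 11 libraries, and the part of low abundance in these r values was not tested. Cd3e and Cd3g, neighbours on chromosome 9, had r = 0.78 and rho = 0.78 (permutation p adjusted over 8 pairs = 0.0150 and 0.0221), r = 0.72 without WT replicates 3 and 1, and r = 0.31 within the 6 Tnfr1-/- colons (exact permutation p = 0.554). Without WT replicates 1 and 2, r was 0.67 and its adjusted exact permutation p was 0.107. Cd3e and Cd79a had r = 0.37 and rho = 0.37 (adjusted permutation p = 0.310 and 0.337), and r = -0.45 within the Tnfr1-/- colons (exact permutation p = 0.354). Cd3e and Ptprc had r = 0.25 and rho = 0.15 (adjusted permutation p = 0.462 and 0.655). Thus a relation between Cd3e and Cd79a was not detectable over these 11 mice.

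**Figure D4:**
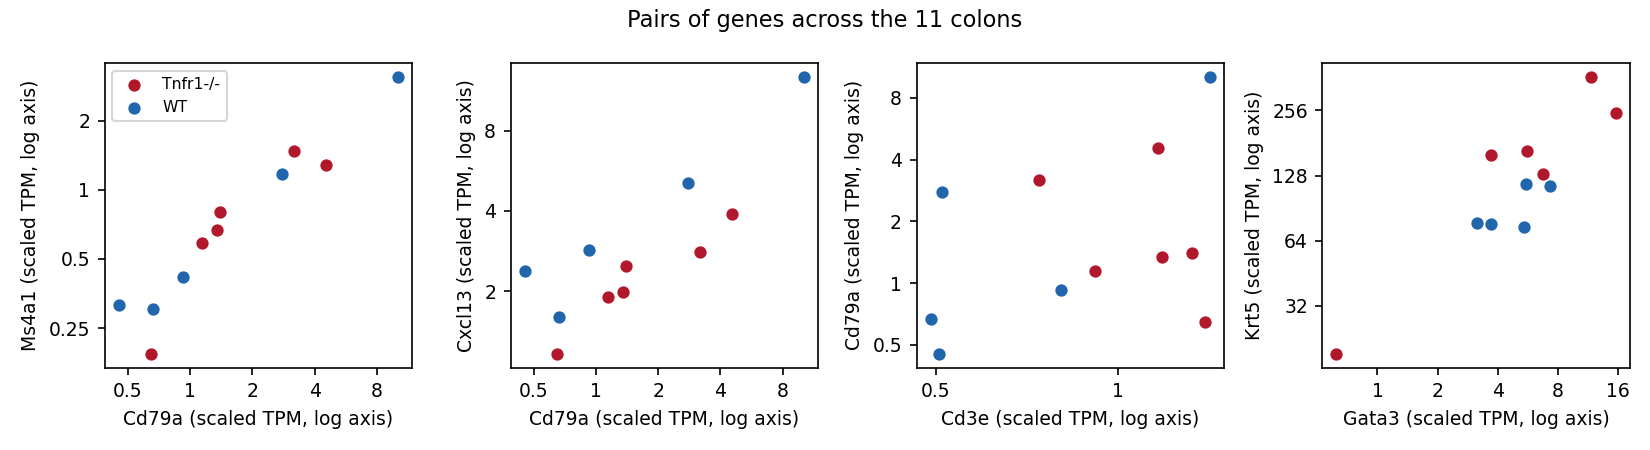
Abundance (scaled TPM, log axes) of 4 pairs of genes in the Tnfr1-/- (red) and WT (blue) colons. Ms4a1 (r = 0.98) and Cxcl13 (r = 0.87) rise along Cd79a in both genotypes, Cd79a does not follow Cd3e (r = 0.37), and Krt5 follows Gata3 (r = 0.90).

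The genes whose log2 abundance was most like that of Cd79a included further genes of B cells and follicles. Of the 15078 other genes tested, 12 had r above 0.9, and 3 of these were the members Cd79b, Cd37 and Spib. Ighd (r = 0.98) and Ighm (r = 0.94), the heavy chains of naive B cells, Iglc2 (r = 0.97) and Iglc3 (r = 0.93), of lambda light chains, and H2-DMb2 (r = 0.96), of MHC class II loading, were among them. Ltb (r = 0.97), the lymphotoxin chain that B cells use to organise follicles, and Ccl19 (r = 0.94), a chemokine of T cell zones, were also among the 12, as were Csf2rb, a chain of cytokine receptors on myeloid and B cells, and Slc1a5, a glutamine transporter. Without WT replicate 2, r stayed at 0.803 or above for all 12.

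Cxcl13, made by follicle stroma and set as a pair with Cd79a, had r = 0.87 and rho = 0.76 with it (permutation p adjusted over 8 pairs = 0.00208 and 0.0221). Without WT replicate 2 and Tnfr1-/- replicate 1, r was 0.67 (exact permutation p = 0.0457), and within the Tnfr1-/- colons it was 0.95 (exact permutation p = 0.00139, the smallest that 6 colons allow). Cxcl13 itself stood at 1.16, 2.23 and 3.90 in Tnfr1-/- colons (lowest, median, highest), against 2.39, 12.7, 1.61, 2.85 and 5.09 in WT colons, a log2 fold change of -0.65 (SE 0.43, adjusted p = 0.667, limma). The groups overlapped, with the highest value in WT replicate 2. Cd79a and Cr2 had r = 0.47 and rho = 0.62 (adjusted permutation p = 0.231 and 0.0743), and r = 0.80 when Cr2 was summed over transcripts of at least 500 bases (adjusted permutation p = 0.00667).

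Other genes of the same pathways, from lists of related genes, were not called either. Of 19 further T cell signalling genes 9 were tested, 4 with higher and 5 with lower fitted values in Tnfr1-/-, and 0 had an unadjusted p under 0.05. The most abundant of them were Tcf7, a factor of T cells that intestinal stroma and epithelium also use, at 7.11 ± 1.81 in Tnfr1-/- colons (SD, n = 6) and 6.59 ± 1.24 in WT colons (SD, n = 5), and Trbc2, the constant part of the T cell receptor beta chain, at 4.76 ± 1.31 in Tnfr1-/- colons and 4.83 ± 1.47 in WT colons. Prkcq, a kinase of the T cell synapse that muscle also expresses, averaged 3.39 ± 0.65 in Tnfr1-/- and 3.13 ± 0.27 in WT colons. For Trbc2 the log2 fold change was -0.02 (SE 0.21).

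Of 15 further B cell signalling genes 8 were tested, 1 with a higher and 7 with lower fitted values in Tnfr1-/-. Of the 8, 1 of the lower ones, Cd40, had an unadjusted p under 0.05, against 9.37% of all genes tested. Its p was 0.0322, with a log2 fold change of -0.46 and an adjusted p of 0.4996 (limma). Cd40, the receptor through which T cells help B cells, averaged 1.67 ± 0.51 in Tnfr1-/- and 2.48 ± 0.71 in WT colons. It is named after its value was seen. The 3 most abundant of the list, Cd38, Blnk and Syk, are also expressed outside B cells, and each was higher in WT replicates 1 and 2 than in the other WT colons: Cd38, an ectoenzyme, had 32.7 to 59.96 in Tnfr1-/- colons, against 85.7 and 84.9 in those WT colons and 35.3 to 38.4 in the other 3. Blnk, an adaptor of the B cell receptor, had 31.6 to 41.1 in Tnfr1-/- colons and 29.7 to 49.96 in WT colons. Syk, the kinase that CD79a and CD79b recruit, had 7.30 to 11.3 in Tnfr1-/- colons and 6.85 to 15.3 in WT colons.

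Of 14 genes of follicle stroma and lymphoid chemokines 11 were tested, 5 with higher and 6 with lower fitted values in Tnfr1-/-. Of the 11, 1 had an unadjusted p under 0.05, against 9.37% of all genes tested. It was Ltbr, the lymphotoxin beta receptor needed to form lymphoid tissue, at 69.2 ± 2.97 in Tnfr1-/- colons (SD, n = 6) and 76.0 ± 2.21 in WT colons (SD, n = 5), with a log2 fold change of -0.14 and an adjusted p of 0.393 (limma). Ltbr lies close to Tnfrsf1a on distal chromosome 6. Among stromal chemokines, Cxcl12 averaged 65.3 ± 13.9 in Tnfr1-/- and 64.1 ± 18.6 in WT colons, and Ccl21a averaged 62.1 ± 6.37 in Tnfr1-/- and 66.9 ± 13.7 in WT colons. The summed level of the 14 was 200.01 to 256 in Tnfr1-/- and 216 to 276 in WT colons, with none at 0.

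At the level of transcripts, 15 of the 214 transcripts of the members passed the filter. None was called, against 0.00902% of 33276 transcripts, and 0 had an unadjusted p under 0.05, against 8.26%. The lowest was 0.0851, for a Coro1a transcript with a retained intron (adjusted p = 0.660, limma), which averaged 2.34 ± 2.09 in Tnfr1-/- colons (SD, n = 6) and 3.85 ± 1.23 in WT colons (SD, n = 5). In the authors' deposited table, p-values were given for 53 member transcripts, 1 of them under 0.05, for another Coro1a transcript, of 1170 bases (p = 0.00362, log2 fold change 2.56 from the authors' test across all transcripts), and the lowest q-value was 0.777. That transcript stood at 0.205 to 0.619 in Tnfr1-/- colons, against 0.347 in WT replicate 4 and 0 in the other 4 WT colons, the opposite direction to the transcript with a retained intron.

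Ptprc showed a difference between libraries in how its reads were assigned to transcripts. CD45 exists in isoforms that differ in alternative exons near the start of the protein, and B cells and T cells use them differently. The transcript with 29 exons took 24.1% to 54.1% of Ptprc abundance in Tnfr1-/- colons and 36.0% to 56.9% in 4 WT colons, but 0.752% in WT replicate 2. The transcript with 30 exons took 23.4% to 52.3% in Tnfr1-/- colons and 17.8% to 56.8% in those 4 WT colons, but 83.1% in WT replicate 2. That library also had the highest values of 12 B cell genes. Single-end reads of 75 bases seldom span the exons that tell these transcripts apart, so the split is an estimate, and its relation to B cells was not tested.

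**Figure D5:**
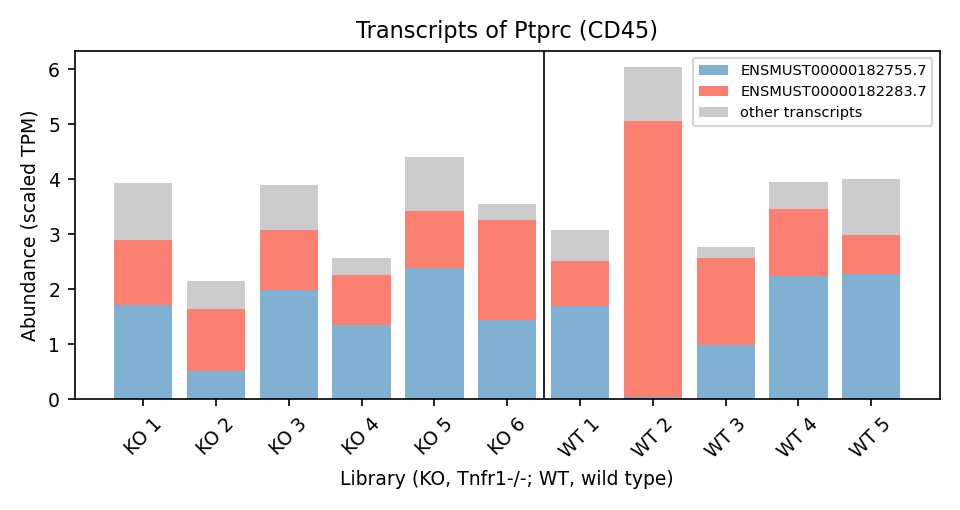
Abundance (scaled TPM) of the Ptprc transcripts with 29 exons (ENSMUST00000182755.7, blue) and 30 exons (ENSMUST00000182283.7, red) and of all others (grey), stacked, in each Tnfr1-/- (KO) and WT library. WT replicate 2 has the tallest bar, with 83.1% of it from the transcript with 30 exons.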

How the data were processed

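RNA from full-thickness colon was sequenced as stranded mRNA libraries with single-end reads of 75 bases, per the labels' protocols. Tools named in the submitters' processing notes are CASAVA, kallisto and sleuth, on build mm10, with no version. The authors' deposited signal per library is TPM scaled by a size factor, for 113193 distinct transcripts. Beside it, per the file headers, the authors deposited p-values and q-values per transcript, a mean as the natural log of normalized counts, and a log2 fold change, Tnfr1-/- over WT. Transcripts listed more than once (584) were kept once and summed per Ensembl gene, giving 35683 genes, and 97 transcripts without a gene were left out.

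The 2 genotypes were tested, two-sided, by limma 3.58.1 under R 4.3.3 with empirical Bayes moderation and a mean trend, on the log2 of the value plus 0.5, over the 15079 genes with a value of at least 1 in at least 5 libraries, and p-values were Benjamini-Hochberg adjusted over all of them. A call needed an adjusted p under 0.05. This scale understates changes of low genes. Where nothing states that libraries came from separate litters or cultures, p-values measure only the spread between these samples. Correlations of log2 values used 100000 two-sided permutations over 11 libraries, or an exact permutation test with fewer than 10. They were adjusted over 8 pairs, 2 of them (Gata3 with Krt5 and Ebf1 with Cd79a) added after the data were seen. Scores were described without a test. The fits were checked on simulated data, with changes placed only in genes more abundant than most members tested. That check therefore does not cover changes in low genes. Other steps used Python 3.11.15 with scipy 1.17.1, numpy 2.4.6, pandas 2.3.3 and matplotlib 3.10.9.

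The table holds no read totals. Reads were estimated from the steps of low values of genes with 1 transcript, taking a fragment length of 200 bases. At the chosen factor 55.9% to 59.3% of those values lay within 0.02 of a whole read, against at most 2.35% at a typical other factor. Since many did not, depths are estimates, no count test was run, and no intervals were made from them. Values of low genes rest on few reads, and 9 of the 37 members with a read estimate had a median under 20 reads. Short transcripts gain a large abundance from a few reads. Lengths, exons and positions are from GENCODE M21 (GRCm38), and promoters from RefSeq on GRCm38.p6.

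The members, the lists of related genes and cell markers, and the tests were chosen with earlier results of these data known. Named genes are Tnfrsf1a, all members, called genes of the other lists and otherwise the 3 most abundant of each list described, some of which are not reported here. Alternatives tried were quantile normalization, columns rescaled to equal sums, other filters and pseudocounts, the replicate number as a block, other scores, transcripts of at least 500 bases, and leaving out libraries.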

Additional observations from a re-analysis of the deposited data

Results flagged for a closer look

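Each member and both scores were checked within each genotype for a library far from the others, and 19 of 82 groups of values held such a library. For normally distributed values about 4.1 would, but members were checked on the abundance scale, not on its log. Members also vary together across mice, so 1 colon can be flagged many times, and the 19 cannot be set against the 4.1. WT replicate 2 was that library in 12 of the 19, each time as the highest of the WT colons. In B cell genes it had abundances of 10.1 for Cd79a, 2.99 for Fcer2a, 1.35 for Pax5, 1.83 for Blk, 2.80 for Cd22, 2.52 for Cxcr5 and 3.71 for Spib, and the next WT colon had 2.80 for Cd79a, 0.956 for Fcer2a, 0.203 for Pax5, 0.311 for Blk, 0.879 for Cd22, 0.753 for Cxcr5 and 0.984 for Spib. In T cell and shared genes WT replicate 2 had 0.797 for Cd8a, 0.155 for Ctla4, 1.49 for Cd2 and 0.974 for Ccr7, and its T cell score was 0.28, while those of the other WT colons were all below 0.

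WT replicate 1 was far below the other WT colons for Zap70, at 0.450, for Il7r, at 0.340, and for Ebf1, at 1.43. Among Tnfr1-/- colons, replicate 5 was far above the others for Cd8b1, at 0.524, and for Cd28, at 0.297. Tnfr1-/- replicate 2 was far above the others for Ctla4, at 0.190, and Tnfr1-/- replicate 1 was far above them for Cxcr5, at 1.27. Of that Cxcr5 value, 0.620 came from a transcript of 358 bases. With transcripts of at least 500 bases alone, Cxcr5 stood at 0.653 in Tnfr1-/- replicate 1 and at 0.560 in Tnfr1-/- replicate 5. The values of Cd8b1, Cd28 and Ctla4 lie below 1 and rest on few reads.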

How the results depend on the processing

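No member was called in any of 327 fits of a member under another setting, where the lowest adjusted p was 0.324 (limma), for Cd3g without WT replicates 1 and 2. Of those fits 30 changed sign, all for members not called. Members with higher fitted values numbered 24 without a filter, 19 with a filter at 0.2 and 0 with a filter at 10, where Coro1a alone was tested, against 9. With the filter at 0.2 an unadjusted p under 0.05 was reached by 1 member, Cd3e. Sign changes were 0.014 for Cd79a and 0.0070 for Spib with columns rescaled, 0.086 for Cd79a and 0.021 for Spib with a pseudocount of 0.1, and 0.093 for Lat, 0.34 for Cd79a, 0.063 for Cd37 and -0.10 for Ebf1 without WT replicates 1 and 2, and the cause was not tested. That pair left out gave 5 transcripts called in place of 3, and an r of 0.67 for Cd3e with Cd3g, -0.064 with Cd79a and -0.065 with Ptprc. Cd79a and Cr2 had r = 0.80 over transcripts of at least 500 bases. Detected members averaged 9.33 (T) and 5.67 (B) in Tnfr1-/- and 8.40 (T) and 4.8 (B) in WT colons at a threshold of 1, and 21.50 and 14.0 in Tnfr1-/- and 21.2 and 14.0 in WT colons above 0, against 13.5 and 9.67 in Tnfr1-/- and 13.0 and 8.20 in WT colons at 0.5.

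Leaving out each library in turn gave 1 to 2 genes called, 1 to 10 transcripts, and 0 to 1 member with an unadjusted p under 0.05 in either direction. Log2 fold changes ran from -0.10 to 0.21 for Cd247, -0.062 to 0.19 for Cd4, -0.23 to 0.0022 for Lat, -0.15 to 0.62 for Gata3, -0.11 to 0.016 for Il2rg, -0.31 to 0.56 for Cd79a, -0.12 to 0.65 for Cd79b, -0.35 to 0.20 for Cd37, -0.054 to 0.17 for Ebf1 and -0.18 to 0.14 for Spib. The r of Cd3e with Ptprc ran from -0.0035 to 0.47 and that of Cd79a with Cr2 from 0.41 to 0.70.

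With the replicate number as a block, 1 gene was called, 9 members had higher values, and the sign changed for Gata3 (-0.15) and Cd79a (0.044). Same-numbered libraries did not deviate together in every pair (r from -0.22 to 0.38 over 5 pairs), so the numbers were not taken to pair the mice. Low abundance limits these comparisons: 22 members lay under the filter.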

Other observations

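Lymphoid cells without antigen receptors gave a similar picture. Of 14 genes of innate lymphoid and natural killer cells 4 were tested, 2 with higher and 2 with lower fitted values in Tnfr1-/-, and 0 had an unadjusted p under 0.05 (limma). Nkg7, a granule protein of cytotoxic lymphocytes, averaged 1.83 ± 0.51 in Tnfr1-/- colons (SD, n = 6) and 1.48 ± 0.54 in WT colons (SD, n = 5). Il1rl1, the IL-33 receptor, had 0.828 to 3.81 in Tnfr1-/- colons, against 7.46 in WT replicate 1, 8.75 in WT replicate 2 and no more than 1.44 in WT replicates 3 to 5. Il22 and Il17a were at 0 in at least 1 library.

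M cells are the epithelial cells that pass antigen to the follicles beneath them. Of 6 genes of M cells 4 were tested and 0 had an unadjusted p under 0.05 (limma). Anxa5, Marcksl1 and Ccl9 were the most abundant. Anxa5 averaged 136 ± 11.5 in Tnfr1-/- and 136 ± 19.4 in WT colons, Marcksl1 84.9 ± 6.34 in Tnfr1-/- and 90.9 ± 7.54 in WT colons, and Ccl9 16.9 ± 5.35 in Tnfr1-/- and 22.6 ± 3.80 in WT colons. Gp2, the surface receptor of mature M cells, which the pancreas also makes, stood at 13.9 in Tnfr1-/- replicate 2 and at no more than 0.494 in the other 10 libraries. It was named after its values were seen. That colon was not high in B cell genes, with a B cell score of -0.22.

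Of 6 genes of plasma cells 2 were tested, both with higher fitted values in Tnfr1-/- and 0 at an unadjusted p under 0.05 (limma). Sdc1, which epithelium expresses strongly, averaged 132 ± 11.3 in Tnfr1-/- and 131 ± 13.1 in WT colons. Prdm1, the plasma cell factor that the suckling gut epithelium also uses, averaged 5.04 ± 1.79 in Tnfr1-/- and 4.33 ± 0.55 in WT colons. Mzb1, a chaperone of antibody secretion, had 0.279 to 1.07 in Tnfr1-/- and 0.196 to 1.53 in WT colons.

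Markers of the other tissues of the colon wall held no gene with an unadjusted p under 0.05 (limma). The sum of 6 fibroblast genes led by Col3a1, Col1a2 and Col1a1 ran from 1900 to 2911 in Tnfr1-/- and from 1533 to 3450 in WT colons. The sum of 5 smooth muscle genes led by Actg2, Tagln and Acta2 ran from 5691 to 7643 in Tnfr1-/- and from 3940 to 10338 in WT colons. The sum of 4 adipocyte genes led by Fabp4, Cidec and Adipoq ran from 126 to 432 in Tnfr1-/- and from 133 to 186 in WT colons, and that of 3 blood genes, Hbb-bs, Hba-a1 and Alas2, from 198 to 936 in Tnfr1-/- and from 291 to 451 in WT colons. The epithelial genes were led by Krt8, Epcam and Krt18, and the macrophage genes by C1qa, C1qb and C1qc.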
